A study of Mus musculus with 2 samples.

Results

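Rhox5, Rhox6 and Rhox9 are homeobox genes of the Rhox (reproductive homeobox) cluster on the mouse X chromosome. They were selected by symbol, as reproductive homeobox genes active in early germ cells, and make up 3 of the 18877 gene rows measured in primordial germ cells (PGCs), from which eggs and sperm later form. Both libraries belong to 1 group, E9.5 PGC, from untreated C57BL6 mouse embryos at embryonic day 9.5, and were enriched with an SSEA1 antibody. The study's methods give the embryos as female, dissect the cells from gonads and sort them by CD61 and SSEA1 or by SSEA1 alone, without saying which sort or how many embryos went into each library. No other group, stage or cell type was analysed here, so every value below is a level in these PGCs and no difference between conditions could be tested.

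Homeobox genes encode transcription factors that bind DNA through a conserved domain, and the Rhox genes are a rapidly duplicated set of them known for expression in testis, ovary, placenta and germ cells. Rhox5, the founding gene of the cluster (also called Pem), is known for its role in Sertoli cells and for its silencing by DNA methylation in many somatic tissues. Rhox6 and Rhox9 (also called Psx1 and Psx2) are close copies of each other, first described in placenta and also known in germ cells.

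The homeobox stretches are shown because they carry the feature that defines these genes, and because the likeness of Rhox6 and Rhox9 bears on how reads could be told apart. Each is the 180-base coding stretch of the GENCODE M21 transcript on GRCm38 (mm10), read 5′ to 3′ on the gene's own strand and joined across introns. Rhox5 spans X:37805372-37808656 on the plus strand, Rhox6 spans X:37827734-37829665 on the plus strand and Rhox9 spans X:37899258-37901043 on the minus strand. Capitals in Rhox9 mark the 19 bases that differ from Rhox6, and the other 161 bases are the same.
Rhox5: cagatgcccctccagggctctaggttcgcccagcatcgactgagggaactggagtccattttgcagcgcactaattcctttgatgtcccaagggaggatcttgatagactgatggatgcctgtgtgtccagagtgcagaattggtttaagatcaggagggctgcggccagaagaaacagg
Rhox6: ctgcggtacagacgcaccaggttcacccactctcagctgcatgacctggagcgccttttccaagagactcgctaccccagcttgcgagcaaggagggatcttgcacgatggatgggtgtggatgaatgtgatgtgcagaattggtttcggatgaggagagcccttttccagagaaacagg
Rhox9: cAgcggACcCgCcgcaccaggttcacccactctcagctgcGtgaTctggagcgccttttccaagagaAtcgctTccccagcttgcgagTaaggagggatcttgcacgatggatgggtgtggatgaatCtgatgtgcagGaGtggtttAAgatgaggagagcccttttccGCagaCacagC

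Over the whole coding sequence, Rhox6 and Rhox9 shared 617 of 681 bases (90.6%), with no gap and a longest shared run of 161 bases. Rhox5 was much further away, with 47.8% identity to Rhox6 and 49.5% to Rhox9 in a global alignment. The spliced transcripts have the same layout of 4 coding exons, in which the third exon is 46 bases long in all 3 genes and the coding parts of the second exon are 460 bases in both Rhox6 and Rhox9. Of the 50-base windows in the spliced transcripts, 16.5% in Rhox6 were found unchanged in Rhox9, and 19.1% in Rhox9 were found in Rhox6. At 150 bases these shares were 1.39% and 1.64%. No window of Rhox5 was found in a transcript of another gene at 50, 100 or 150 bases. How the authors' counting treated reads that fit both copies is not given in the sources used here, so the split between Rhox6 and Rhox9 is less certain than the level of Rhox5.

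Rhox5 had the highest deposited level of the 3 genes, Rhox6 came next and Rhox9 was lowest. Levels are TPM, in which the reads of a gene are divided by its length and then scaled so that every library has the same total. The 2 libraries differed in depth, with 15912471 reads recovered in replicate 1 and 5458687 in replicate 2. Intervals below are exact 95% Poisson intervals on the recovered reads and cover counting error only. In bulk samples such as these, fewer cells that express a gene and less of its RNA per cell cannot be told apart.

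Rhox5 (ENSMUSG00000095180.8, X:37804842-37808876, plus strand) was at 2427 TPM in replicate 1 and 2220 TPM in replicate 2. These values rest on 17397 and 5595 reads, with intervals of 2391 to 2464 TPM and 2162 to 2278 TPM. Its mean was 2323 ± 147 TPM (SD, n = 2). Replicate 1 was the higher library, and the intervals of the libraries did not overlap. Rhox5 was the 59th highest gene of the table, and 99.7% of genes were below it. Among the 795 genes of the X chromosome it ranked 1.

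Rhox6 (ENSMUSG00000006200.3, X:37826910-37829857, plus strand) was at 864.9 TPM in replicate 1 and 914.8 TPM in replicate 2, or 889.9 ± 35.3 TPM (SD, n = 2). It held 8304 and 3089 reads, with intervals of 846 to 884 TPM and 883 to 948 TPM. Here replicate 2 was the higher library and the intervals met at their edges. Rhox6 ranked 192 in the table and 7 on the X chromosome.

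Rhox9 (ENSMUSG00000068048.8, X:37899097-37901770, minus strand) was at 473.9 TPM in replicate 1 and 489.1 TPM in replicate 2, or 481.5 ± 10.8 TPM (SD, n = 2). It held 11207 and 4068 reads, with intervals of 465 to 483 TPM and 474 to 504 TPM. These intervals overlapped between the libraries. Rhox9 ranked 374 in the table and 17 on the X chromosome. In each library the intervals of the 3 genes lay apart from each other, so the order Rhox5, Rhox6, Rhox9 in deposited TPM was larger than counting error and than the spread between replicates.

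**Figure D1:**
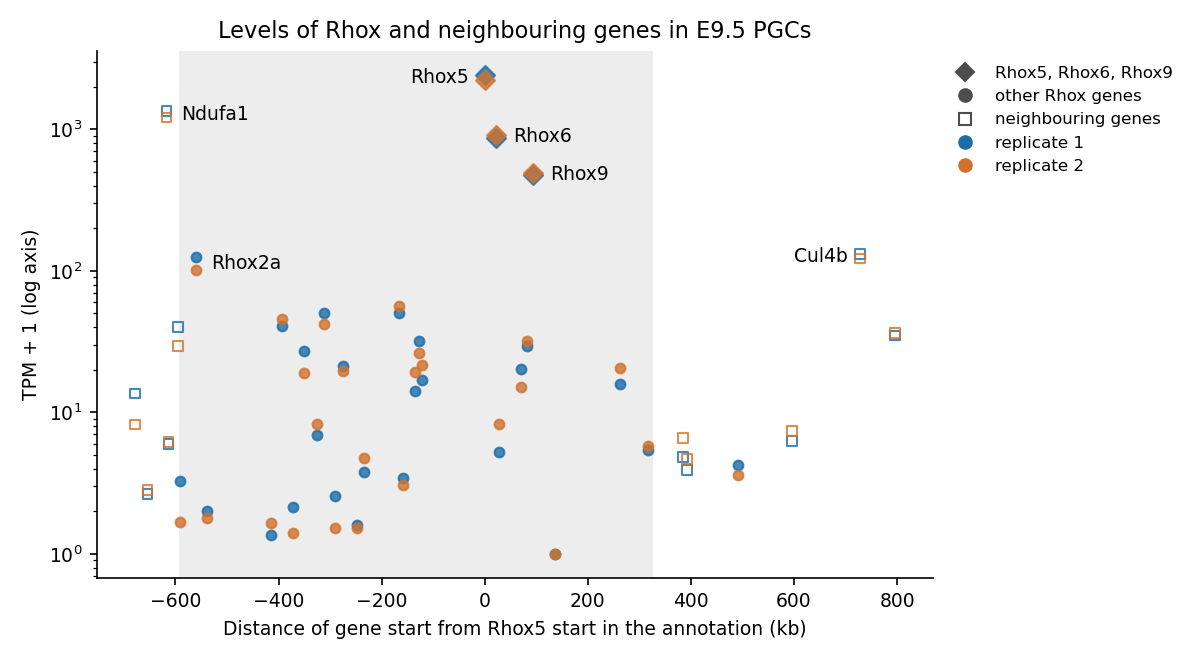
TPM + 1 on a log axis for each Rhox gene and for 10 neighbouring genes, against the distance of the gene's start from that of Rhox5 in kb, with a point for each replicate and the span of the protein-coding Rhox genes in grey. Rhox5, Rhox6 and Rhox9 lie above every other Rhox gene, of which Rhox2a was highest at 112 TPM, while the neighbour Ndufa1 reached 1277 TPM.

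Rhox9 held more reads than Rhox6 in both libraries although its TPM was lower, and the difference came from the gene length that the TPM was divided by. For each of the 3 genes, TPM multiplied by the summed length of all annotated exons gave a whole number of reads to within 0.000199 of a read in both libraries. That length was 754 bases for Rhox5, 1010 bases for Rhox6 and 2488 bases for Rhox9. The length of Rhox9 is set by the annotated transcript Rhox9-202, in which 2 introns of the spliced transcript Rhox9-201 are kept as exon sequence. These stretches lie at X:37899300-37900279 (980 bases) and X:37900326-37900951 (626 bases). The spliced Rhox9-201, which carries the full coding sequence, is 882 bases long. With 882 bases in place of 2488, the deposited value of Rhox9 would give 3972.9 reads in replicate 1 and 1442.1 in replicate 2, which are not whole numbers.

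**Figure D2:**
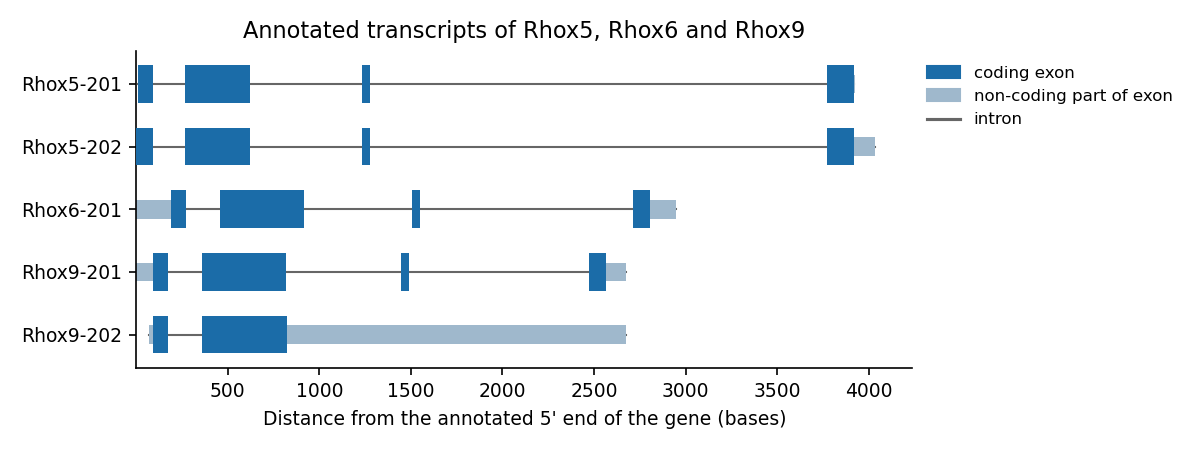
Annotated GENCODE M21 transcripts of Rhox5, Rhox6 and Rhox9, drawn to scale by distance in bases from the annotated 5′ end of each gene, with coding exons in dark blue, non-coding exon parts in light blue and introns as lines. Rhox9-202 runs without a break through 2 introns that Rhox9-201 removes, a total of 1606 bases.

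Within a library, the ratio of Rhox6 to Rhox9 was 1.83 in replicate 1 and 1.87 in replicate 2 by deposited TPM, a mean of 1.85 ± 0.032 (SD, n = 2). By recovered reads, which are not per length, it was 0.750 ± 0.013 (SD, n = 2). TPM was also recomputed from the reads with the length of the principal transcript, and genes without a tagged one kept the length of all exons. The ratio of Rhox6 to Rhox9 was then 0.655 ± 0.011 (SD, n = 2), so their order turned in both libraries. On that recomputed scale Rhox5 was at 2038 ± 134 TPM, Rhox9 at 1000 ± 19.8 TPM and Rhox6 at 655 ± 24.3 TPM (SD, n = 2). A gene's recomputed value depends on its own change of length and on a scaling shared by all genes, which holds the total fixed. Rhox9 thus went up, while Rhox6, whose length stayed the same, went down. The deposited files do not show which Rhox9 transcript the reads came from, so which order holds per RNA molecule cannot be told.

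Rhox5 stayed highest on all 3 scales. Its ratio to Rhox6 was 2.62 ± 0.269 by deposited TPM, 1.95 by reads and 3.12 with principal lengths. Its ratio to Rhox9 was 4.83 ± 0.413 by deposited TPM, 1.46 by reads and 2.04 with principal lengths (SD, n = 2). For Rhox9 the ratio of the length of all exons to that of the principal transcript was 2.82. A ratio this large was found in 4.95% of the 12679 protein-coding genes of the table, whose median was 1.10. Genes without a tagged principal transcript counted as a ratio of 1, so both figures may be too low. For Rhox5 the length ratio was 1.19 and for Rhox6 it was 1.

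**Figure D3:**
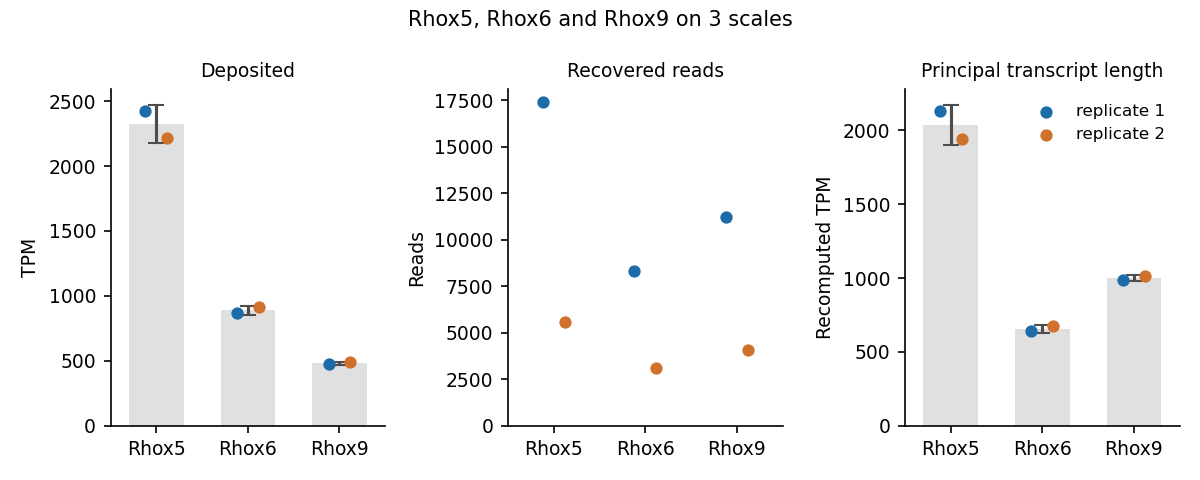
Rhox5, Rhox6 and Rhox9 as deposited TPM, as recovered reads and as TPM recomputed with principal transcript lengths, with a point for each replicate, and bars and error bars for the mean and SD of the TPM panels. Rhox9 is lowest by deposited TPM, at 481.5 TPM, and lies above Rhox6 in the other panels.

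The annotation also limits the value of Rhox5. The RefSeq gene table places its start at X:37754608, which is 50.2 kb upstream of the GENCODE M21 start at X:37804842, where the first annotated exon begins with coding sequence. The recovered whole reads fit the GENCODE exons, so reads in exons further upstream were not part of the deposited value under that annotation.

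The libraries were compared with each other on the log2(TPM + 1) scale, as replicate 2 minus replicate 1. The difference was -0.13 for Rhox5, 0.08 for Rhox6 and 0.05 for Rhox9. Rhox5 was thus lower in replicate 2 and the other members higher. With each library scaled by its median, the differences were -0.07, 0.14 and 0.11. None of the 3 genes passed 2-fold, and over all measured genes 10.2% did. The TPM ratio of replicate 2 to replicate 1 was 0.914 for Rhox5, with a counting interval of 0.887 to 0.942. For Rhox6 it was 1.06, with an interval of 1.01 to 1.10. For Rhox9 it was 1.03, and its interval of 0.995 to 1.07 held 1. Among genes with a like number of reads (within 2-fold), 42.5% of 287 genes differed by more than Rhox5, 62.9% of 568 by more than Rhox6 and 80.0% of 436 by more than Rhox9. These are differences between 2 libraries of 1 group and describe those libraries alone.

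**Figure D4:**
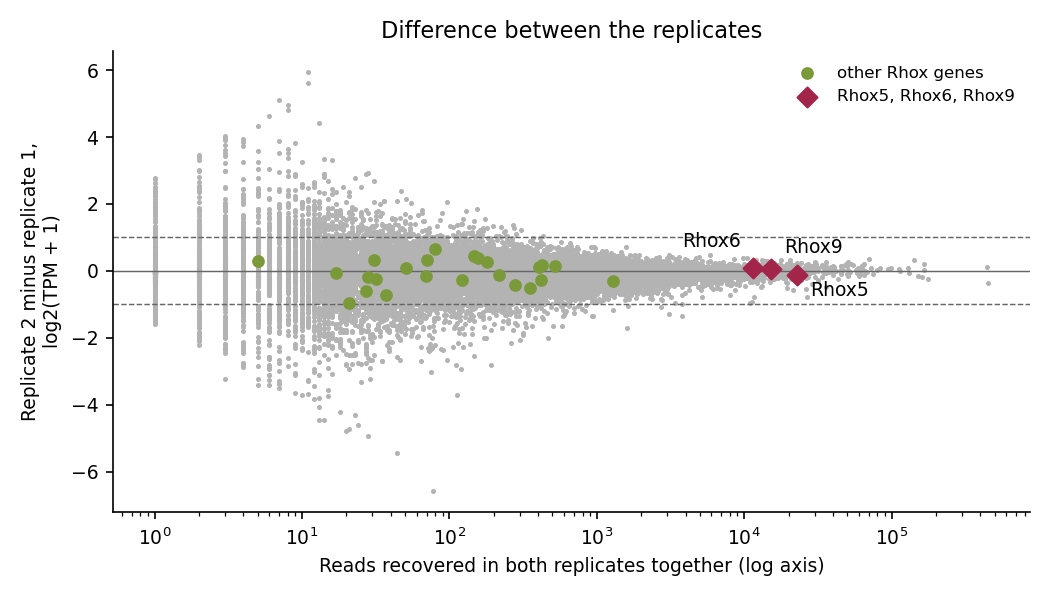
Difference of log2(TPM + 1) between replicate 2 and replicate 1 for all genes with recovered reads in grey, against the reads of both libraries together on a log axis, with dashed lines at 2-fold. Rhox5 (-0.13), Rhox6 (0.08) and Rhox9 (0.05) lie close to 0 and well to the right of the other Rhox genes.

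The other Rhox genes were present at much lower levels. The table held 28 of the 42 Rhox genes and pseudogenes that GENCODE M21 annotates, and the other 14 were not analysed here. Rhox5, Rhox6 and Rhox9 together held 89.1% of the summed Rhox TPM in replicate 1 and 89.2% in replicate 2, and 90.8% and 91.2% of the Rhox reads. Of the 25 other Rhox rows, 18 reached 1 TPM in both libraries (72.0%), against 60.0% of all measured genes, and 12 reached 10 TPM. Of the 21 protein-coding rows among them, 15 reached 1 TPM in both libraries, near the share of 69.5% over all protein-coding genes. The median log2(TPM + 1) of the 25 rows was 2.92 ± 0.191 (SD, n = 2). The median of all genes was 1.89 in replicate 1 and 1.85 in replicate 2.

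Rhox2a was the highest of the others, at 124 TPM in replicate 1 and 101 TPM in replicate 2. Rhox9 was 3.82-fold above it in replicate 1 and 4.86-fold in replicate 2. Next in order came Rhox2g at 52.6 ± 4.18 TPM, Rhox2d at 45.3 ± 6.05 TPM, Rhox2b at 42.5 ± 3.46 TPM and Rhox7b at 29.6 ± 1.60 TPM (SD, n = 2). Rhox2g was above Rhox2b in both libraries, by more than the sum of their SDs, but their counting intervals overlapped. In replicate 1 these were 44.74 to 54.91 TPM for Rhox2g and 35.65 to 44.79 TPM for Rhox2b. In replicate 2 they were 46.96 to 65.25 TPM and 37.25 to 53.72 TPM, so the order is not firm. Rhox2d differed from Rhox2g and from Rhox2b by less than the sum of their SDs. The Rhox2 genes are known as close copies of each other, though their sequences were not compared here. Their split may thus be uncertain and their sum firmer. Summed over its 9 rows, Rhox2 was at 331 ± 14.3 TPM and every row reached 1 TPM in both libraries.

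The remaining subfamilies were lower still. The 4 Rhox7 rows summed to 66.2 ± 0.715 TPM and the 7 Rhox4 rows to 12.6 ± 0.466 TPM, of which 2 reached 1 TPM in both libraries. Rhox10 was at 17.2 ± 3.43 TPM and Rhox8, known from Sertoli and granulosa cells, at 16.7 ± 3.58 TPM. Rhox13, known from later germ cells, was at 4.61 ± 0.238 TPM. Rhox1 was at 2.26 TPM in replicate 1 and 0.677 TPM in replicate 2, on 19 and 2 reads. Rhox11-ps2 was listed at 0 in both libraries.

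High and low genes lay side by side in the cluster. Rhox6 starts close to Rhox5, and Rhox7a, Rhox8 and Rhox7b lie between Rhox6 and Rhox9. Rhox7a, which starts 26.8 kb from the Rhox5 start, was at 4.28 TPM in replicate 1 and 7.30 TPM in replicate 2. Rhox8, at 69.9 kb, was at 19.2 and 14.2 TPM. Rhox7b, at 81.6 kb, was at 28.4 and 30.7 TPM. All these genes were thus below Rhox6 and Rhox9 on either side of them in both libraries. Between the libraries, 11 of the other Rhox rows were higher in replicate 2 and 13 were lower. On the log2(TPM + 1) scale 0 of 25 passed 2-fold, against 10.2% of all measured genes. That scale understates the change of low genes: by TPM, Rhox1, Rhox4d and Rhox4b were more than 2-fold lower in replicate 2, on 2 to 4 reads there.

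Among the 99 homeobox genes of the table, Rhox5, Rhox6 and Rhox9 ranked 1, 2 and 3 by mean TPM, and Rhox2a ranked 4. The highest homeobox gene outside the Rhox family was Adnp, a broadly expressed chromatin protein gene, at 89.1 and 82.2 TPM in the libraries. The 75 homeobox genes outside the family had a median log2(TPM + 1) of 0.96 ± 0.076 (SD, n = 2), and 28 of them (37.3%) reached 1 TPM in both libraries. With principal transcript lengths, Rhox9 took rank 2 and Rhox6 rank 3.

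The genes on either side of the cluster ranged from 1.74 to 1277 TPM. All 10 reached 1 TPM in both libraries, against 69.5% of protein-coding genes. The protein-coding Rhox genes span 916.2 kb, and the table held no other protein-coding gene inside that span. Before the cluster, Ndufa1, a subunit of respiratory complex I, was at 1277 ± 93.7 TPM and Gm9, at 2.76 kb from the first Rhox gene, was at 33.7 ± 7.30 TPM. Nkap was at 9.88 ± 3.81 TPM, Rnf113a1 at 5.06 ± 0.104 TPM and Akap14 at 1.74 ± 0.136 TPM. After the cluster, Cul4b, a ubiquitin ligase scaffold, was at 126.2 ± 6.82 TPM and Mcts1 at 34.7 ± 1.03 TPM. Lamp2, a lysosomal membrane protein gene, was at 5.81 ± 0.773 TPM, Zbtb33 at 4.72 ± 1.25 TPM and Tmem255a at 3.30 ± 0.520 TPM (SD, n = 2). The median of the 10 neighbours was 3.08 ± 0.176 on the log2(TPM + 1) scale, near that of the other Rhox genes.

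Genes for DNA and H3K9 methylation and factors described for the Rhox5 promoters were measured in the same cells. None came near the level of Rhox9, and whether any of them acts on the Rhox genes in these cells was not tested. Of 13 listed genes for DNA and H3K9 methylation, 11 were in the table. Of these, 9 (81.8%) reached 1 TPM in both libraries, against 69.5% of protein-coding genes and 60.0% of all measured genes. Trim28, a corepressor of zinc finger proteins, was highest at 64.9 ± 5.24 TPM. Hells, a chromatin remodeller needed for DNA methylation, was at 52.0 ± 0.313 TPM.

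Dnmt1, the maintenance DNA methyltransferase, was at 19.0 ± 0.180 TPM. Its partner Uhrf1 was at 2.20 ± 0.0697 TPM. The de novo methyltransferase genes were low in deposited TPM, with Dnmt3a at 2.68 ± 0.589 TPM and Dnmt3b at 0.676 ± 0.286 TPM. Dnmt3a held 490 and 126 reads over 16642 exonic bases, and Dnmt3b 23 and 15 reads over 5106. As for Rhox9, such a TPM depends on the length used. Among the dioxygenases that oxidise methylcytosine, Tet1 was at 15.8 ± 2.20 TPM and Tet2 at 0.467 ± 0.0424 TPM. Of the H3K9 methyltransferases, Setdb1 was at 17.8 ± 0.526 TPM, Ehmt1 at 3.23 ± 0.859 TPM and Ehmt2 at 1.37 ± 0.449 TPM (SD, n = 2). DNA methylation itself was not measured in these libraries.

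Of 6 transcription factor genes described for the Rhox5 promoters, 5 were in the table. Of these, 4 (80%) reached 1 TPM in both libraries, against 69.5% of protein-coding genes. Gabpa, the DNA-binding subunit of the ETS factor GABP, was at 27.5 ± 1.08 TPM, and its partner Gabpb1 was at 4.45 ± 0.514 TPM. Sp1 was at 10.4 ± 0.535 TPM, Ets2 at 1.95 ± 0.689 TPM and Elf1 at 0.938 ± 0.573 TPM. Of the target genes described for RHOX5, Ins2 was at 17.6 ± 1.33 TPM (SD, n = 2) and Unc5c was not analysed here.

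The labelled cell type was checked by its markers, since Rhox5, Rhox6 and Rhox9 are also known in placenta and other extra-embryonic tissue. All 11 PGC markers reached 1 TPM in both libraries, against 69.5% of protein-coding genes and 60.0% of all measured genes. Their summed level was 5713 TPM in replicate 1 and 5786 TPM in replicate 2, most of it from Dppa3. Dppa3 (5044 ± 44.1 TPM), Nanos3 (462.7 ± 14.3 TPM) and Sox2 (125.9 ± 28.8 TPM) were highest. The rest were much lower, from Dnd1 at 35.3 ± 2.39 TPM to Prdm1 at 6.98 ± 1.22 TPM and Pou5f1. Pou5f1 was lowest at 1.50 ± 0.057 TPM (SD, n = 2), on 33 and 11 reads. In deposited TPM, Rhox5 lay between Dppa3 and Nanos3, and Rhox9 differed from Nanos3 by less than the sum of their SDs. With its principal transcript length Rhox9 was at 1000 TPM, and Nanos3 was not compared on that scale.

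Of 13 trophoblast and placenta markers, 6 were in the table and 1 reached 1 TPM in both libraries (16.7%), against 69.5% of protein-coding genes. Their summed level was 3.14 TPM in replicate 1 and 3.06 TPM in replicate 2. Gcm1, a factor of labyrinth trophoblast, was highest at 1.73 ± 0.004 TPM, and Gata3 and Krt7 were at 0.680 ± 0.102 and 0.218 ± 0.008 TPM. Eomes was listed at 0 in replicate 1, and Hand1 and Ascl2 in replicate 2. The other 7 markers, Cdx2, Elf5, Prl3d1 and Tpbpa among them, were not analysed here, and the part of such cells in the Rhox levels was not tested.

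Yolk sac and visceral endoderm markers were also low. Of 12 listed, 8 were in the table and 2 reached 1 TPM in both libraries (25%), against 69.5% of protein-coding genes. Apob, Hnf4a, Sox17 and Ttr were not analysed here. Rbp4 (3.53 ± 3.16 TPM), Amn (1.68 ± 0.840 TPM) and Apom (1.30 ± 0.665 TPM) were highest, and Afp and Cubn were each listed at 0 in a library. Of 6 parietal endoderm markers, Sparc (27.8 ± 1.79 TPM) and Lamb1 (7.21 ± 0.806 TPM) reached 1 TPM, Thbd was at 0.625 ± 0.315 TPM, and Col4a1 was listed at 0 in replicate 2.

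Erythroid genes stood out among the other lists. Hba-x, an embryonic globin gene, was at 2331 TPM in replicate 1 and 2065 TPM in replicate 2, close to the level of Rhox5. Hbb-y was at 976 ± 69.8 TPM and Hba-a1 at 440 ± 8.55 TPM. Klf1, a red cell transcription factor, was at 0.920 ± 0.911 TPM (SD, n = 2). Of 8 listed erythroid genes, 6 were in the table and 5 reached 1 TPM in both libraries (83.3%), against 69.5% of protein-coding genes. Alas2 and Gata1 were not analysed here. The list summed to 3983 TPM (replicate 1) and 3765 TPM (replicate 2), and its part in the Rhox levels was not tested.

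Endothelial and gonadal somatic markers were low. Of 6 listed endothelial markers, 5 were in the table and 1 reached 1 TPM in both libraries (20%). Of 7 gonadal somatic markers, 5 were in the table and 2 reached that level (40%), against 69.5% of protein-coding genes. Cdh5, Amh and Foxl2 were not analysed here. Pecam1, also expressed in germ cells, was at 9.11 ± 1.25 TPM, and Tek was at 0.965 ± 0.467 TPM. Emcn was at 2.12 TPM in replicate 1 and listed at 0 in replicate 2. Emx2 was at 1.60 ± 0.277 TPM, Wt1 at 1.14 ± 0.0971 TPM, and Lhx9 at 1.02 ± 0.145 TPM (SD, n = 2).

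**Figure D5:**
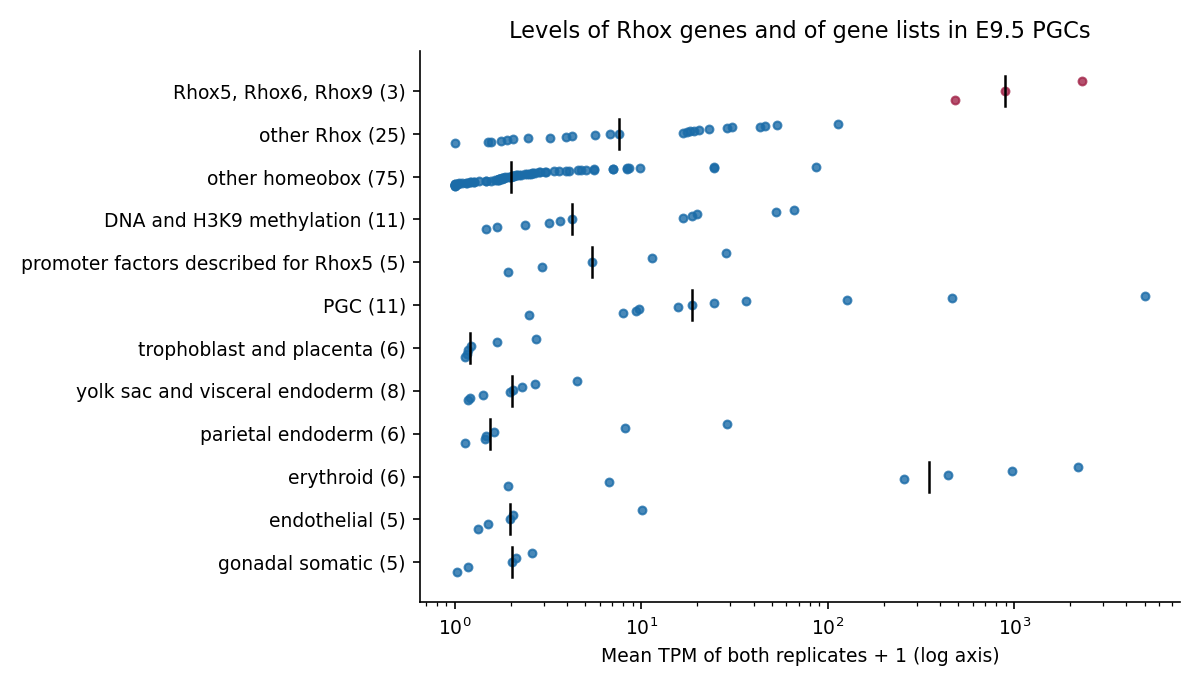
Mean TPM + 1 of both replicates on a log axis for each gene of the lists named at the left, with the number of genes in brackets and a vertical line at the median. Rhox5, Rhox6 and Rhox9 lie to the right of the other Rhox genes, of the 75 other homeobox genes and of the methylation genes, in the range of the globin genes and of Nanos3.

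The protein-coding genes nearest in level were found by Euclidean distance in log2(TPM + 1) over the 2 libraries, which places genes by level alone. Nearest to Rhox5 were mt-Nd6 (distance 0.09), Hba-x (0.12) and Mrpl42 (0.14). Nearest to Rhox6 were Gm49383, Selenoh and Chchd1, at distances of 0.02 to 0.03. Nearest to Rhox9 were Snrnp27, Rpl35a and Ndufb10, at distances of 0.04 to 0.05. All these distances rest on deposited TPM, and so for Rhox9 on the length that holds the kept introns. Among the genes named are those of the respiratory chain (mt-Nd6, Ndufb10), of ribosomes (Mrpl42, Rpl35a) and of embryonic globin (Hba-x).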

How the data were processed

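Total RNA from E9.5 PGCs was sequenced in 2 libraries of 1 group. Libraries were made by Smart-seq2 in the study's methods and with an NEBNext Ultra kit in the labels, so the chemistry is uncertain. The authors aligned reads to mm10 with Hisat2, counted them per gene with featureCounts and deposited TPM values. The labels also list Bowtie2, RSEM, DESeq2 and R 3.4.2 without a role. Aligner versions, annotation and strand handling are not given in the sources used here. No column of other samples was present.

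Symbols were matched to GENCODE M21, and 18748 of 18877 had 1 gene with a length. Multiplying TPM by the union of annotated exons gave whole multiples of 1 amount per library, taken as 1 read. Of the values under 50 reads, 96.7% and 95.8% came within 0.02 of a whole number. A count test on those reads was not run, because both libraries are of 1 group. In data simulated with these same gene lengths, the count was recovered for 100% of 18748 genes. That run took the lengths as right, so it could not show whether they fit the deposited values. Recovered totals of 15912471 and 5458687 reads set the counting precision. The intervals reflect counting error alone. Without molecular identifiers, several reads can stem from 1 molecule.

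Levels were analysed as TPM and log2(TPM + 1), which understates differences of low genes. Values are mean ± SD of both replicates, and no p-value was computed. That the replicates are separate biological samples is the submitters' statement. The members and lists were chosen with earlier results of these data known. Genes named were the members, the 5 highest other Rhox genes, the homeobox genes next in rank, 10 neighbours, the regulator lists, the 3 nearest in level and the 3 highest markers of other cell types. Position, subfamily and rows at 0 were added to that rule after the values were seen. Values of some single list genes are not reported here. Principal transcripts were those with the top principal tag of APPRIS in GENCODE M21, the longest where a gene had several. Genes without this tag kept the length of all their exons. Python 3.11.15, numpy 2.4.6, pandas 2.3.3, scipy 1.17.1, biopython 1.88 and matplotlib 3.10.9 were used.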

Additional observations from a re-analysis of the deposited data

How the results depend on the processing

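The level of Rhox5, Rhox6 and Rhox9, with means of 11.18, 9.80 and 8.91 on the log2(TPM + 1) scale, depended on the scaling and the gene length. Without genes under 200 exonic bases and mitochondrial genes, which held 20.5% and 19.9% of TPM, the means rose to 11.51, 10.12 and 9.24, and the median of the other Rhox genes went from 2.92 to 3.21. With principal transcript lengths, chosen after seeing the data, they were 10.99, 9.36 and 9.97. With these lengths the ratio was 3.12 for Rhox5 to Rhox6, 2.04 for Rhox5 to Rhox9 and 0.655 for Rhox6 to Rhox9, and Rhox6 and Rhox9 exchanged ranks 3 and 2 among homeobox genes. By recovered reads the ratios were 1.95, 1.46 and 0.750. Among genes with a mean of at least 1 TPM, 99.5%, 98.5% and 97.1% were below Rhox5, Rhox6 and Rhox9. Median scaling moved the replicate differences to -0.065, 0.144 and 0.109, with no change of sign. A pseudocount of 0.1 moved the median of the 5 promoter factors described for Rhox5 from 2.44 to 2.18. The count of other Rhox genes at 1 TPM in both libraries, 18, was 14 at a mean of at least 5 TPM, 24 at a mean of at least 0.1 TPM and 15 among protein-coding genes alone.

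With a single library in place of both, the log2 levels ranged from 11.12 to 11.25 for Rhox5, 9.76 to 9.84 for Rhox6 and 8.89 to 8.94 for Rhox9. The share of genes below them ranged from 99.66% to 99.71%, 98.96% to 99.01% and 97.98% to 98.03%. The ratios ranged from 2.43 to 2.81 (Rhox5 to Rhox6), 4.54 to 5.12 (Rhox5 to Rhox9) and 1.83 to 1.87 (Rhox6 to Rhox9). The other Rhox genes at 1 TPM numbered 18 to 22. The homeobox ranks of 1, 2 and 3 held in each library.

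No paired analysis was possible because both libraries belong to 1 group. The values rest on 2 libraries, so an SD is a rough guide to the spread. The handling of reads that fit both Rhox6 and Rhox9 was not tested. The count of other Rhox genes rests in part on Rhox2 copies whose likeness was not measured.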
